A study of Brassica napus with 2 samples.

Results

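The genes described here are the well-expressed genes outside the *Aux/IAA* family that were at least 2-fold lower in *B. napus* seedlings treated with auxin. They were chosen by their measured values: at least 10 FPKM in at least 1 of the 2 libraries, and a log2 fold change of IAA over control of -1 or less after 0.1 FPKM was added to both values. FPKM counts the sequenced fragments of a gene corrected for transcript length and for the total of its library, so that genes can be compared in level. A total of 255 genes met both conditions, of 15593 genes outside the family at that minimum and 63193 genes with values in all. The IAA library came from whole seedlings kept for 3 h with 1 μM of the auxin IAA (indole-3-acetic acid), and the control library from seedlings kept equally long without it, in liquid medium by the methods and in water by the sample labels. All seedlings were 30 days old, 10 were pooled for each library, and no transgene or mutation is named in the labels. With 1 library per condition there was no replicate and no test, so that an effect of IAA and a difference between the 2 pools of seedlings cannot be told apart.

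Auxin changes transcription mainly by removing repressors. It brings Aux/IAA proteins to the SCF TIR1/AFB ubiquitin ligase, and their degradation releases auxin response factors (ARFs) that activate their targets. Best known are therefore the genes that auxin raises, the *Aux/IAA*, *SAUR* and *GH3* families. Lower transcript levels can follow from ARFs that repress, from induced repressors or from other hormone pathways. By the paper, ARFs that repress may interact with Aux/IAA proteins only weakly or not at all. *B. napus* is an allotetraploid with an A subgenome related to *B. rapa* and a C subgenome related to *B. oleracea*, so that most genes have a homeolog in the other subgenome. The identifiers used here give the chromosome and a gene number that increases by 10 from gene to gene along it. The paper also places family members on random scaffolds, and whether an identifier with a chromosome lies on one was not checked. The files do not pair the identifiers with gene names or functions. In the RefSeq table for the Da-Ae assembly, 2817 of the 63193 identifiers, and 14 of the 255, appeared as symbols, without a function. The results are therefore ordered by level, size of the difference and position, not by role.

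Depth is not part of the files and was estimated from the lowest values, which step by whole fragments. Of 5083 genes between 0 and 0.3 FPKM in the IAA library and also in the control library, 1171 shared a ratio of 1.29 of the IAA to the control value, as they would if the IAA library were the shallower one. With the transcript lengths of *Aux/IAA* genes, the steps corresponded to 18300000 fragments in the IAA library and 23700000 in the control library. At these depths and an effective transcript length of 1000 bp, the counting interval (95%, exact binomial) of the log2 fold change ended at -0.73 or lower for each of the 242 genes above 0 FPKM with IAA. At 200 bp it ended at -0.30 or lower. Since the genes were chosen by these same values, the intervals describe the precision of counting and do not support the differences. They cover counting error only, and the lengths of the genes themselves were not used here. The family left out by the rule had 48 genes at the same minimum, and 0 of them were at least 2-fold lower, so that the exclusion removed no gene.

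The 255 genes made up 1.64% of the genes at the minimum, a share that depends on the thresholds of the rule. At the same minimum 1.89% of the genes, 294, were at least 2-fold higher with IAA. The 255 genes had a median of 7.65 FPKM in the IAA library (quartiles 4.93 and 14.9), against 21.8 FPKM in the control library (quartiles 14.5 and 38.6). All 15593 genes had medians of 19.6 FPKM with IAA and 19.9 FPKM in the control. The lower level with IAA was set by the choice of the genes. Together the 255 genes held 0.517% of the summed FPKM in the IAA library and 1.37% in the control library. With IAA, 101 of them still had at least 10 FPKM, and the other 154 were under that level. Since whole seedlings were pooled, fewer cells of a type and less RNA per cell cannot be told apart.

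**Figure D1:**
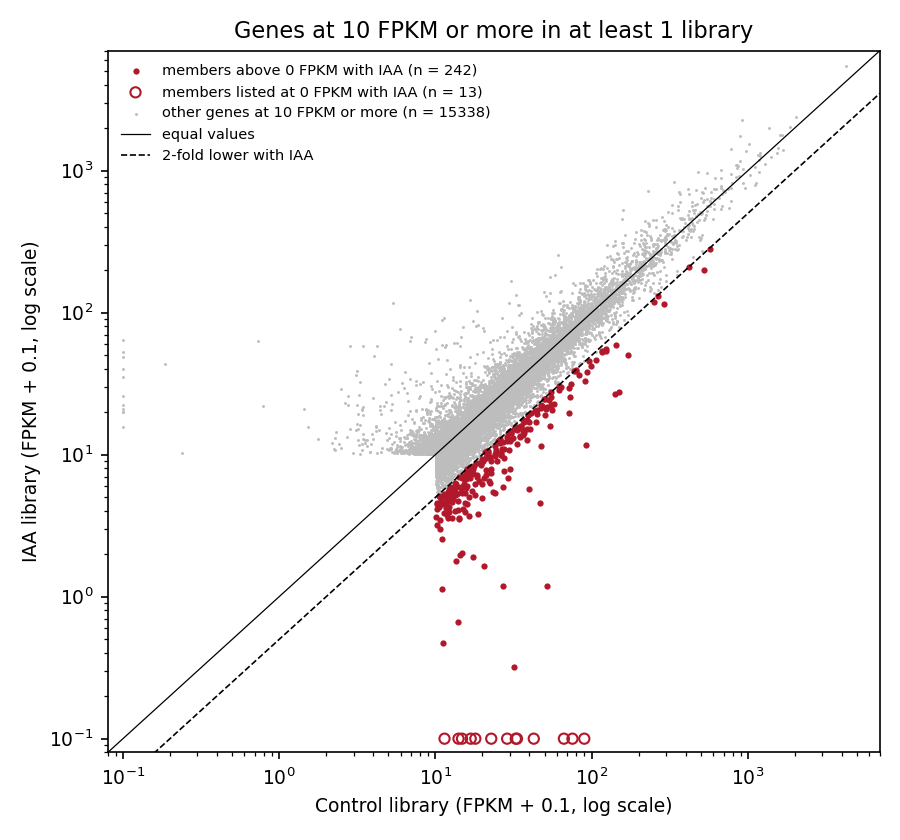
FPKM in the IAA library (vertical axis) against the control library (horizontal axis), both after adding 0.1 and on log scales, for 15593 genes that reached 10 FPKM in at least 1 library. The 255 chosen genes (members, red) lie on or under the dashed line of a 2-fold lower value, and 13 of them (open circles) are listed at 0 FPKM with IAA.

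Most of the differences were close to the threshold. The median log2 fold change was -1.29 (-1.27 without the genes listed at 0 FPKM), against -0.04 over all genes at the minimum, and 178 of the 255 genes (69.8%) lay above -1.5. A further 38 genes lay between -1.5 and -2, and 17 between -2 and -3. Only 9 genes above 0 FPKM with IAA reached -3 or less, and 13 were listed at 0 FPKM with IAA. The share of genes at least 2-fold lower was much alike across levels, at 1.60% from 10 to under 20 FPKM, 1.79% from 20 to under 50 FPKM, 1.60% from 50 to under 100 FPKM and 1.21% from 100 FPKM, with overlapping 95% exact binomial intervals. In the same bands 1.30%, 2.16%, 2.86% and 2.67% of the genes were at least 2-fold higher.

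At the edge of the fold threshold, BnaC04g12350D was at 38.6 FPKM with IAA and 77.3 FPKM in the control, and BnaA08g00590D at 12.7 FPKM with IAA and 25.5 FPKM in the control. BnaCnng72330D, with 10.6 FPKM with IAA and 21.3 FPKM in the control, was also just inside. Their values can hardly be told from those of the genes just outside. BnaA05g34480D was at 6.88 FPKM with IAA and 13.9 FPKM in the control, BnaA04g00700D at 17.7 and 35.5 FPKM, and BnaC04g22190D at 8.10 and 16.3 FPKM, in the same order. At the minimum of 10 FPKM, BnaC03g59630D (3.53 FPKM with IAA, 10.03 FPKM in the control), BnaA05g33110D (4.42 and 10.09 FPKM) and BnaA09g02570D (4.45 and 10.13 FPKM) were included. BnaC02g31070D (2.69 FPKM with IAA, 9.9998 FPKM in the control), BnaC03g26340D (4.67 and 9.81 FPKM) and BnaA05g34970D (2.92 and 9.81 FPKM) were not.

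The most highly expressed of the genes were mostly little more than 2-fold lower. BnaAnng27610D was at 279 FPKM with IAA and 571 FPKM in the control, the highest values of the group in both libraries (log2 fold change -1.03). BnaA06g34320D was at 199.6 FPKM with IAA and 524 FPKM in the control (log2 fold change -1.39), and BnaCnng69940D at 209 FPKM with IAA and 422 FPKM in the control (log2 fold change -1.01). BnaCnng69940D was thus above BnaA06g34320D with IAA and below it in the control. BnaA03g55570D was at 115 FPKM with IAA and 290.4 FPKM in the control (log2 fold change -1.33). BnaA09g26590D was at 132 FPKM with IAA and 268 FPKM in the control (log2 fold change -1.02). BnaAnng02700D, at 119 FPKM with IAA and 251 FPKM in the control, completed the 6 highest.

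Among the next 6 genes, 3 stood out by a larger difference. BnaC09g48180D was at 50.3 FPKM with IAA and 170.3 FPKM in the control (log2 fold change -1.76). BnaAnng02710D was at 27.7 FPKM with IAA and 150.2 FPKM in the control (log2 fold change -2.44, 95% counting interval at 1000 bp from -2.58 to -2.30). BnaA05g29430D was at 26.7 FPKM with IAA and 142 FPKM in the control (log2 fold change -2.41, interval from -2.55 to -2.28). The other members of the 12 highest in the control were nearer to the threshold. BnaC09g03690D was at 59.6 FPKM with IAA and 143 FPKM in the control, BnaA04g22070D at 53.7 FPKM with IAA and 124 FPKM in the control, and BnaAnng35370D at 55.4 FPKM with IAA and 124 FPKM in the control. In all, 15 of the 255 genes had at least 100 FPKM in the control.

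The largest differences above 0 FPKM were found in genes of moderate level. BnaA09g13220D was at 0.222 FPKM with IAA and 31.9 FPKM in the control (log2 fold change -6.64). At an effective length of 1000 bp its IAA value is worth 4 fragments, so that the counting interval was wide, from -9.07 to -5.83. At 200 bp it is worth 1 fragment, with an interval from -12.18 to -4.37. BnaC06g01800D was at 1.09 FPKM with IAA and 52.0 FPKM in the control (log2 fold change -5.46, interval from -6.29 to -4.94). BnaA02g25990D was at 1.08 FPKM with IAA and 27.1 FPKM in the control (log2 fold change -4.52, interval from -5.35 to -3.99). On chromosome C01, BnaC01g09500D was at 0.371 FPKM with IAA and 11.1 FPKM in the control, and BnaC01g39070D at 0.568 FPKM with IAA and 13.9 FPKM in the control. The IAA values of both were worth at most 10 fragments at 1000 bp, and their log2 fold changes were -4.57 (interval from -6.18 to -3.79) and -4.39 (interval from -5.75 to -3.77). At 200 bp the intervals of these 2 genes ran from -10.66 to -2.79 and from -7.75 to -2.76.

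Between these and the rest lay 7 genes with log2 fold changes from -3.62 to -2.88. BnaA09g13230D was at 1.56 FPKM with IAA and 20.3 FPKM in the control, and lies directly beside BnaA09g13220D. BnaUnng00740D was at 4.49 FPKM with IAA and 46.9 FPKM in the control, and carries no chromosome in its identifier. BnaA02g15900D, at 11.6 FPKM with IAA and 92.2 FPKM in the control, was the only one of the 12 largest differences above 0 FPKM that kept at least 10 FPKM with IAA. The others were BnaC04g49050D (1.03 FPKM with IAA, 10.9 FPKM in the control), BnaA07g30010D (1.80 and 17.2 FPKM), BnaCnng16420D (1.70 and 13.4 FPKM) and BnaAnng37270D (1.87 and 14.3 FPKM).

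**Figure D2:**
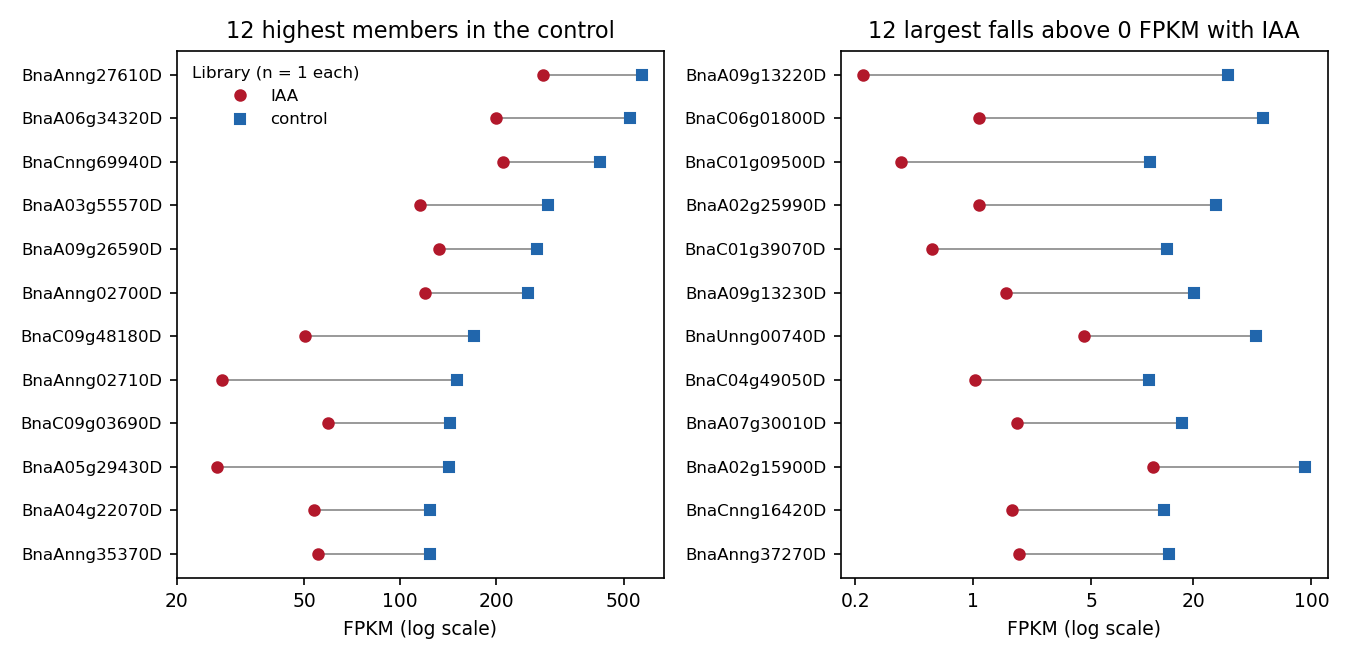
FPKM on a log scale in the IAA library (red circles) and the control library (blue squares), 1 library each, for the 12 chosen genes with the highest control values (left) and the 12 with the largest difference among those above 0 FPKM with IAA (right). On the left the IAA values run from 26.7 to 279 FPKM, and on the right from 0.222 to 11.6 FPKM, with no error bars since there is no replicate.

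For 13 genes the IAA library listed 0 FPKM. The highest in the control was BnaCnng02740D at 89.8 FPKM, followed by BnaC02g15310D at 75.4 FPKM, BnaA03g29670D at 66.4 FPKM and BnaC01g14560D at 42.6 FPKM. On chromosome C07, BnaC07g35420D and BnaC07g05760D were at 33.2 and 32.6 FPKM in the control. No fold change is given for these genes, because a listed 0 can be a failed estimate as well as a lack of fragments, and which of these applies was not tested. BnaC04g41400D, BnaA05g01540D, BnaA03g58830D, BnaA04g09310D, BnaA07g36720D and BnaC09g51980D followed, with control values from 14.0 to 28.7 FPKM, and BnaC03g09170D had the lowest, 11.3 FPKM. In the opposite direction, 11 genes at the minimum were listed at 0 FPKM in the control and above it with IAA.

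Of the 26 gene numbers adjacent to the listed zeros, 19 had values in the files, 18 of them above 0 FPKM in both libraries. BnaCnng02750D, next in number to the unplaced BnaCnng02740D but not necessarily beside it, was at 27.3 FPKM with IAA and 23.8 FPKM in the control. BnaC04g41390D, next to BnaC04g41400D, was at 20.8 FPKM with IAA and 25.3 FPKM in the control. BnaA05g01530D, next to BnaA05g01540D, was at 13.5 FPKM with IAA and 14.2 FPKM in the control. These neighbours thus differed little between the libraries. BnaC07g05770D, next to BnaC07g05760D, was lower as well, at 3.51 FPKM with IAA and 8.59 FPKM in the control. BnaC03g09170D lay between BnaC03g09160D, at 1.15 FPKM with IAA and 0.354 FPKM in the control, and BnaC03g09180D, at 2.21 FPKM with IAA and 5.08 FPKM in the control. BnaA03g58840D, beside BnaA03g58830D, was at 0.212 FPKM with IAA and listed at 0 FPKM in the control.

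Both subgenomes contributed. Genes are called placed here if their identifier names a chromosome, which can include random scaffolds assigned to it. Of the 215 placed chosen genes, 108 were in the A subgenome and 107 in the C subgenome. This is 50.2% in A (95% exact binomial interval 43.4% to 57.1%). All placed genes at the minimum had 48.7% in A, which lies inside that interval. The genes of both subgenomes were also alike in level. The 108 genes of the A subgenome had medians of 7.65 FPKM with IAA and 21.0 FPKM in the control, and the 107 of the C subgenome 7.27 FPKM with IAA and 21.8 FPKM in the control. The median log2 fold changes were -1.27 and -1.30, in the same order. Which of the genes are homeologs of each other is not given by the identifiers.

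All 19 chromosomes carried such genes, between 6 and 22 each. Chromosome C03 had the most, 22, and also the most genes at the minimum, 1338. As a share of the genes at the minimum the range ran from 0.783% on C08 (6 of 766, 95% exact binomial interval 0.288% to 1.70%) to 2.43% on C04 (20 of 822, interval 1.49% to 3.73%), and these intervals overlap. A01 was at 0.946% (6 of 634, interval 0.348% to 2.05%) and A04 at 2.25% (10 of 444, interval 1.09% to 4.10%). The interval of each of the 19 chromosomes included 1.64%, the share over all genes at the minimum. C01 and C02 carried 10 and 6 of the genes. Without a chromosome in the identifier (unplaced) were 40 of the 255 genes, 13 of the A subgenome, 25 of the C subgenome and 2 of neither. They were 2.56% of the unplaced genes at the minimum (interval 1.83% to 3.46%), against 1.53% of the placed genes (interval 1.34% to 1.75%), and these intervals do not overlap. Taken separately, the unplaced genes of the A subgenome (2.25%, interval 1.20% to 3.82%) and of the C subgenome (2.60%, interval 1.69% to 3.82%) had intervals that overlap that of the placed genes. The intervals take genes as independent, which copies of a gene are not, and were not adjusted for the number of chromosomes. Among the 294 higher genes, 40 were unplaced as well, 13.6%, against 15.7% of the 255 genes. Whether incomplete or repeated gene copies on the unplaced sequences play a part was not tested.

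**Figure D3:**
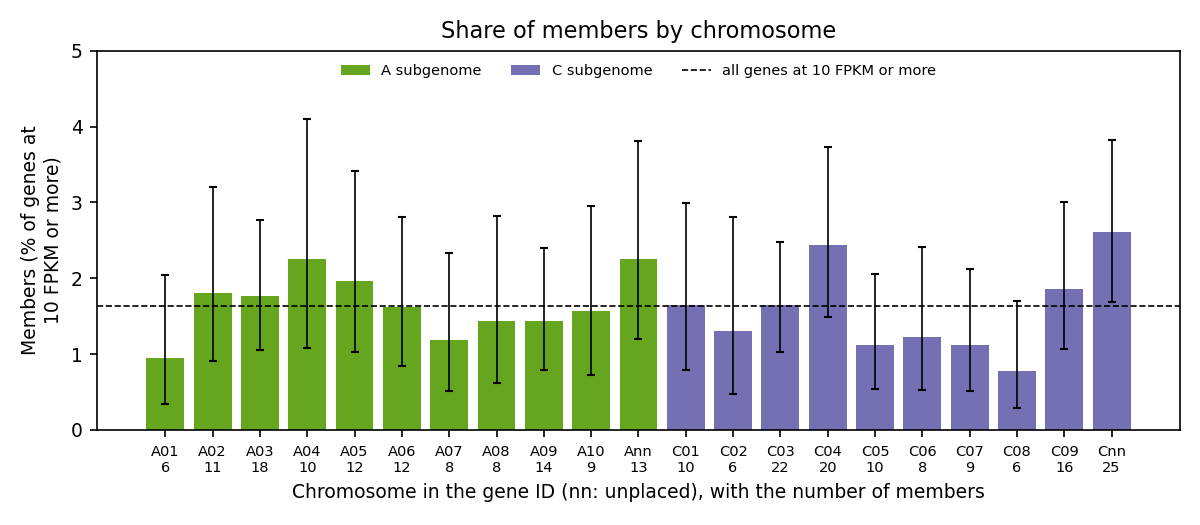
Share of the chosen genes among all genes that reached 10 FPKM in at least 1 library, by the chromosome in the gene identifier, with 95% exact binomial intervals and the number of chosen genes under each bar (green, A subgenome; violet, C subgenome; Ann and Cnn, unplaced). The shares run from 0.783% on C08 to 2.60% among unplaced genes of the C subgenome, and the dashed line marks 1.64%, the share over all chromosomes; the 2 genes of neither subgenome are not drawn.

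Most of the genes had no other one within 5 gene numbers. Within 5 gene numbers of another one lay 24 of the 255 genes (9.41%), in 12 pairs and no longer run, and 12 of these genes, in 6 pairs, had adjacent numbers (4.71%). Among the 294 higher genes, 53 lay within 5 gene numbers of each other (18.0%) and 43 were adjacent (14.6%), with runs of up to 10 and 8 genes. The difference between the lists was not tested. For all genes at the minimum, which lie far closer together, 83.5% lay within 5 gene numbers of another one, and 37.5% were adjacent. These shares are no yardstick for 255 genes, because they rise with the number of genes in a set. No share was computed for other sets of 255 genes, so whether the chosen genes lie closer together than such sets was not tested. Unplaced genes were counted by their numbers as well. No stretch of 100 gene numbers on a chromosome held more than 3 of the 255 genes. Of the stretches with 3, the one with the fewest genes at the minimum ran from BnaC04g45750D to BnaC04g46210D on chromosome C04, with 3 of 11. It was named because it was the most extreme.

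The adjacent pairs differed in how alike their values were. BnaA10g24230D and BnaA10g24240D had nearly equal values in each library. The first was at 5.18 FPKM with IAA and 12.3 FPKM in the control, and the second at 5.22 FPKM with IAA and 13.6 FPKM in the control. On chromosome A03, by contrast, BnaA03g55560D, at 5.82 FPKM with IAA and 13.7 FPKM in the control, stood beside BnaA03g55570D, one of the highest genes of the group, yet their log2 fold changes were close, at -1.23 and -1.33. BnaC04g00740D was at 5.44 FPKM with IAA and 17.1 FPKM in the control, and BnaC04g00750D at 15.8 FPKM with IAA and 35.0 FPKM in the control. BnaCnng59530D was at 9.39 FPKM with IAA and 27.3 FPKM in the control, and BnaCnng59540D at 5.63 FPKM with IAA and 12.2 FPKM in the control. Of the remaining pairs, BnaA09g13220D and BnaA09g13230D are both among the 12 largest differences above 0 FPKM with IAA. In the other pair, the log2 fold change was -1.07 in BnaAnng02700D and -2.44 in BnaAnng02710D. The Cnn and Ann pairs are unplaced, where adjacent numbers need not be neighbouring genes. The same may hold for any pair on a random scaffold assigned to a chromosome. A pair 4 gene numbers apart on chromosome C04 had almost the same values, with BnaC04g45750D at 15.6 FPKM with IAA and 33.1 FPKM in the control, and BnaC04g45790D at 15.4 FPKM with IAA and 33.1 FPKM in the control. Cufflinks can divide fragments between similar genes, and the library kit does not keep the strand, so that values of tandem copies and overlapping genes are uncertain. How far this holds for these pairs was not tested.

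Genes at lower levels beside the chosen ones were examined because the rule did not select them. Of all genes from 1 to under 10 FPKM in their higher library, 6.65% were at least 2-fold lower with IAA and 2.73% at least 2-fold higher. Directly beside the chosen genes, 18 of 153 such genes were at least 2-fold lower (11.8%, 95% exact binomial interval 7.12% to 18.0%), against 560 of 9196 (6.09%, interval 5.61% to 6.60%) beside the other genes at the minimum. The median log2 fold change was nevertheless the same, -0.15 in both sets. At a distance of 3 gene numbers the share was 13.6% beside the chosen genes (interval 8.13% to 20.9%). Beside the other genes it was 6.12% (interval 5.62% to 6.65%), and these intervals do not overlap. At a distance of 5 it was 3.60% (interval 1.18% to 8.19%), against 6.83% (interval 6.30% to 7.39%). The intervals overlapped at distances 2, 4 and 5. Over distances 2 to 5 it was 8.26% (44 of 533, interval 6.06% to 10.9%), against 6.69% beside the other genes, so that these intervals overlap. The share at least 2-fold higher directly beside the chosen genes, 2.61% (4 of 153), was near that of all genes at this level. These genes come from the same 2 libraries as the rule, and the values are a description with no test. Unplaced genes were included, although their adjacent numbers need not be neighbouring genes.

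The sizes of the difference were not equal in the neighbours of some genes with large differences. BnaA02g15910D, beside BnaA02g15900D (log2 fold change -2.98), was at 0.520 FPKM with IAA and 9.71 FPKM in the control (log2 fold change -3.98). BnaUnng00730D, beside BnaUnng00740D (log2 fold change -3.36), was at 0.992 FPKM with IAA and 7.93 FPKM in the control (log2 fold change -2.88). BnaCnng16410D, beside BnaCnng16420D (log2 fold change -2.91), was at 2.41 FPKM with IAA and 6.12 FPKM in the control (log2 fold change -1.31). These neighbours were named after their values had been seen. BnaUnng00730D and BnaCnng16410D are unplaced, where adjacent numbers need not be neighbouring genes. Counting only neighbours that were not chosen themselves, at any level from 1 FPKM, 180 of the 255 genes had one with an adjacent number. At least 1 such neighbour was at least 2-fold lower for 17 of the 180 (9.44%) and at least 2-fold higher for 5 (2.78%). For the other genes at the minimum, 609 of 11992 (5.08%) had such a lower neighbour and 380 (3.17%) a higher one. Among the higher neighbours, BnaAnng36210D, also unplaced, stood far above the gene with the adjacent number. It was at 2284 FPKM with IAA and 922 FPKM in the control, whereas BnaAnng36200D was at 9.84 FPKM with IAA and 21.2 FPKM in the control. BnaA02g32440D was at 6.51 FPKM with IAA and 0.725 FPKM in the control, beside BnaA02g32450D at 10.3 FPKM with IAA and 26.2 FPKM in the control. BnaC04g06020D was at 3.91 FPKM with IAA and 0.228 FPKM in the control, beside BnaC04g06030D at 5.89 FPKM with IAA and 15.9 FPKM in the control. In these 3 cases a gene lower with IAA and a gene higher with IAA had adjacent numbers.

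**Figure D4:**
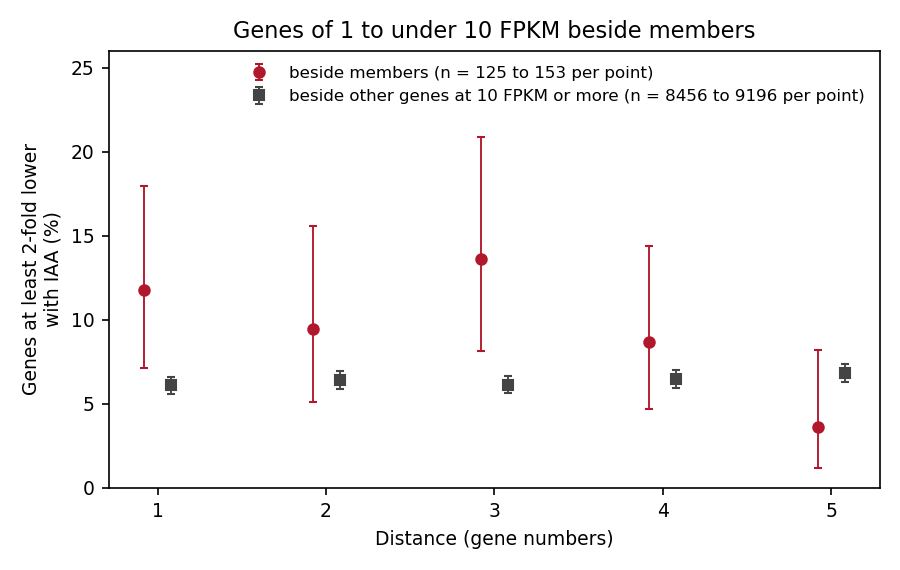
Share of genes at least 2-fold lower with IAA among genes of 1 to under 10 FPKM, by their distance in gene numbers from one of the 255 chosen genes (red circles, 125 to 153 genes per point) or from another gene with at least 10 FPKM (grey squares, 8456 to 9196 genes per point), with 95% exact binomial intervals. The share beside the chosen genes is 11.8% at distance 1 and 3.60% at distance 5, and that beside the other genes is 6.09% and 6.83% at these distances.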

How the data were processed

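RNA was sequenced from 1 IAA library and 1 control library (TruSeq RNA v2, HiSeq3000). Reads were mapped by the authors with HISAT2 (v2.0.4), against version 4.2 of the Darmor-*bzh* genome. The deposited values are FPKM per gene, which the authors calculated with Cufflinks (v2.2.1); 0 genes are at 0 FPKM in both libraries. DEGseq, which the authors ran on read counts, was not repeated, since the deposited values are FPKM.

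From these, log2 fold changes (IAA over control) were computed after adding 0.1 FPKM, which understates changes of low genes, with Python 3.11.15, numpy 2.4.6, pandas 2.3.3, scipy 1.17.1 and matplotlib 3.10.9. Of the 119 *Aux/IAA* identifiers listed by the study, 93 had values and were left out. Depth was the number of fragments that made low *Aux/IAA* values (under 0.35 FPKM, 7 genes with IAA and 10 in the control) whole, at a mean fragment length of 195 bp. Intervals are exact (Clopper-Pearson). Scripts were tested on simulated data. Gene numbers were compared within a chromosome. On unplaced sequences, and on any random scaffold under a chromosome name, neighbouring numbers need not be neighbouring genes.

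The genes and lists were chosen with earlier results of these data known. Named genes were the 12 highest in the control, the 12 largest differences above 0 FPKM with IAA, up to 12 listed at 0, adjacent pairs, the 3 on either side of each threshold, and some added after their values were seen. Lists of gene products and tissue markers could not be applied without gene functions, so the tissue label was not checked. Alternatives were other pseudocounts, minimum levels, thresholds, scalings and neighbour distances.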

Additional observations from a re-analysis of the deposited data

How the results depend on the processing

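No paired analysis was possible because there was only 1 library for each condition. The number of genes lower with IAA, 255, was 229 with a pseudocount of 1 FPKM, 262 with 0.01 FPKM, 214 after centring (a shift of 0.09 on the log2 scale) and 259 after rescaling to the upper quartile. The number of higher genes, 294, was 264, 300, 369 and 292 in the same order. Higher genes thus outnumbered lower ones at each of these settings, by most after centring. The number of lower genes moved further with the minimum, to 140 at 20 FPKM, 523 at 5 FPKM and 5486 without one. At a 4-fold threshold it was 39. These settings take in fewer or more genes by construction. The number of higher genes was 201, 433, 2629 and 98 in the same order. Lower genes were thus the more numerous at 5 FPKM and without a minimum. The genes listed at 0 FPKM with IAA, 13, were 8 and 32 at the minimums of 20 and 5 FPKM. The median log2 fold change of -1.29 was -1.41 without a minimum and -3.36 at the 4-fold threshold, and between -1.29 and -1.25 under the other settings. Genes with another one within 5 gene numbers, 24, were 14 and 60 at the minimums of 20 and 5 FPKM, 2509 without one, 2 at the 4-fold threshold, 12 for adjacent numbers only and between 18 and 31 otherwise. The share in the A subgenome stayed between 47.5% and 50.8%. Without the genes listed at 0 FPKM, a setting chosen after seeing the data, 242 genes, a median of -1.27 and 22 neighbouring genes were left. The absence of replicates and gene lengths limits every value.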
